A study of Mus musculus with 10 samples.

Results

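The genes described here are 31 genes of the erythroid programme, chosen by gene name as a list of globins, haem synthesis enzymes, red cell membrane genes, transcription factors, receptors and red cell enzymes. Of the 31 names, 30 have a row among the 54532 genes of the deposited expression table, and Ahsp was not analysed here. All 30 passed the filter on low values, a mean level of 0.1 FPKM or more over the 10 spleens (fragments scaled by gene length and library size), which 21296 genes passed in all. The samples were whole spleens of 5 mice without DUSP6 (dual specificity phosphatase 6, which removes phosphates from ERK) and of 5 wild-type (WT) mice, 1 library of poly-A RNA per mouse. DUSP6 KO mice carry the Dusp6tm1Jmol allele in every cell, and the labels of these libraries call the genotype a knockdown. WT mice were C57BL/6, and all mice were 8 to 12 weeks old according to the methods of the study. Every mouse, control or KO, had KRN serum-induced arthritis (KSIA), in which 100 µL of pooled serum from arthritic KRN x NOD F1 mice was injected intraperitoneally on days 0 and 2, and spleens were taken on day 9. These libraries hold no group without arthritis, so changes caused by the serum cannot be read from them. Spleens are named by genotype and animal number, as KO 26, 21, 73, 01 and 03 and WT 65, 67, 73, 77 and 83, and the same number 73 in both genotypes is not stated to mark a pair.

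In the mouse the spleen is a blood-forming organ as well as a lymphoid one, and its red pulp makes red cells, particularly under stress. Erythroid progenitors that carry the erythropoietin receptor divide, switch on GATA1 and KLF1, load iron through the transferrin receptor, make haem and globin, and build a membrane skeleton of spectrin, ankyrin and band 3 before they lose the nucleus. GATA1 binds the core GATA, and KLF1 binds CACC boxes, in promoters and enhancers of these genes. In bulk RNA of an organ, fewer erythroid cells and less erythroid RNA per cell cannot be told apart.

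The following stretches are shown because they carry the letters that these factors are known to bind, in front of genes whose levels mostly moved together in the 10 spleens. Of the 30 genes, 23 have at least 1 promoter in the RefSeq table (build GRCm38.p6, 28 promoters), and the 250 bases before each start were searched on both strands for the GATA motifs AGATAA and TGATAA, for the same motifs with a final G, and for the CACC boxes CCACACCC, CCGCACCC and CCCCACCC. A GATA motif was present before 14 of the 23 genes and a CACC box before 6, and 3 genes had both. Counted by promoter, 14 of the 28 held a GATA motif, where 26.5% of all 32851 promoters of the table did, and 25.0% held a CACC box against 13.1%. Both were in 10.7% of the 28 and in 2.44% of all promoters. These searches overlap, since the looser pattern CCNCNCCC contains all 3 CACC boxes; it was in 57.1% of the 28 and in 45.9% of all promoters. Capitals mark the motif, which reads in reverse complement where the capitals contain TATC, and each line reads 5′ to 3′ towards the gene.
Klf1, chr8:84901890-84901919 (+): tttgcctgggtcTTATCAgggaagacagcc
Alas2, chrX:150547319-150547348 (+): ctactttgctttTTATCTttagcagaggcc
Hba-a1, chr11:32283477-32283506 (+): tgtccgggcaacTGATAAggattccctgca
Hba-a2, chr11:32296294-32296323 (+): tgtccgggcaacTGATAAggattccctgca
Hbb-bs, chr7:103828121-103828150 (-): tgttctctgcacAGATAAggacaaacatta
Hbb-bs, chr7:103828003-103828032 (-): attccgtagagCCACACCCtggtaagggcc
Hbb-bt, chr7:103813997-103814026 (-): accctgcagggtaacaccctggcattggcc
Rhd, chr4:134864481-134864510 (+): cccggcagcctgAGATAAgacctttggcgg
Ermap, chr4:119190045-119190074 (-): tgaacgctcgctTTATCAggggtgggcaga
Cpox, chr16:58670105-58670134 (+): tgactaaagcgcCTATCTtatcagtccaag
The motif of Klf1 begins 80 bases before its start, that of Alas2 86 bases before, and the CACC box of Hbb-bs 93 bases before. Both alpha globin genes carry the same 30 letters around their GATA motif, and over 147 bases next to the start their promoters are identical. Of the CACC window of Hbb-bs, 21 bases lie in an exon of GENCODE M21, and the other windows shown lie outside annotated exons. The Hbb-bt line is the stretch most like the CACC window of Hbb-bs, with 20 of 30 letters shared, and it holds none of the 3 CACC boxes. In Cpox a further motif on the same strand, TTATCA, overlaps the one shown by 1 base. For Epor and Gata1, 150 bases up to the RefSeq start are given, since each holds a CACC box and no base of an annotated exon. The Epor stretch lies upstream of the gene as GENCODE M21 draws it, and the Gata1 stretch inside the gene, between exons.
Epor, chr9:21963577-21963726 (-): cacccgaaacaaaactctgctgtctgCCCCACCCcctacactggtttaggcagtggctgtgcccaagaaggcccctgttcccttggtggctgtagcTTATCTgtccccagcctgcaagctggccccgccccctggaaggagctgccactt
Gata1, chrX:7967911-7968060 (-): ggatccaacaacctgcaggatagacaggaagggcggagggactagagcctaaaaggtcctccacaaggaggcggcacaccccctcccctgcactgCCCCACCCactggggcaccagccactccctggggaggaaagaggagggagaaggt
A match is a description of these letters and was not measured as a bound site.

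Depth was 14990474 to 19822673 reads assigned to genes in the KO spleens and 15611652 to 18422147 in the WT spleens. The targeted gene followed the labels in all 10 libraries, with Dusp6 at 0.308 to 0.624 FPKM in KO and 16.6 to 24.0 FPKM in WT. The labels state that mice of both sexes were used, but every library here had the Y-linked Ddx3y at 14.4 FPKM or more and Xist at 0.0206 FPKM or less. By these genes all 10 spleens were from males. WT 67 stood apart by enzymes of the exocrine pancreas, whose 8 markers summed to 10740 FPKM there, 147 FPKM in WT 65 and 9.55 to 26.2 FPKM in the other 8 spleens.

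Erythroid genes differed several-fold between individual spleens of either genotype, and nearly all of them moved together. KO 73 had the highest level of all 10 spleens for 30 of 30 genes. KO 21 and WT 67 were each among the lowest 2 for 29 of 30, KO 21 being lowest for 16 genes and WT 67 for 13. WT 77 ranked second for 23 genes, KO 01 took rank 3 for 22 genes, and KO 26 ranked second for 6. The highest spleen exceeded the lowest by 3.66-fold for Bpgm, the enzyme that makes 2,3-bisphosphoglycerate in red cells, and by 15.2-fold for Slc4a1, which encodes the anion exchanger band 3, with a median of 7.93-fold over the 30 genes. On the log2(FPKM + 0.1) scale the SD over the 10 spleens was 0.65 to 1.22 with a median of 0.95, against a median of 0.36 over all 21296 genes tested. An SD of 0.5 or more was reached by 30 of the 30 genes and by 37.6% of all genes tested. The 11 membrane and skeleton genes had the highest median ratio of highest to lowest spleen, 10.7-fold, beside 5.89-fold for the 4 globins and 6.18-fold for the 7 haem synthesis genes.

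**Figure D1:**
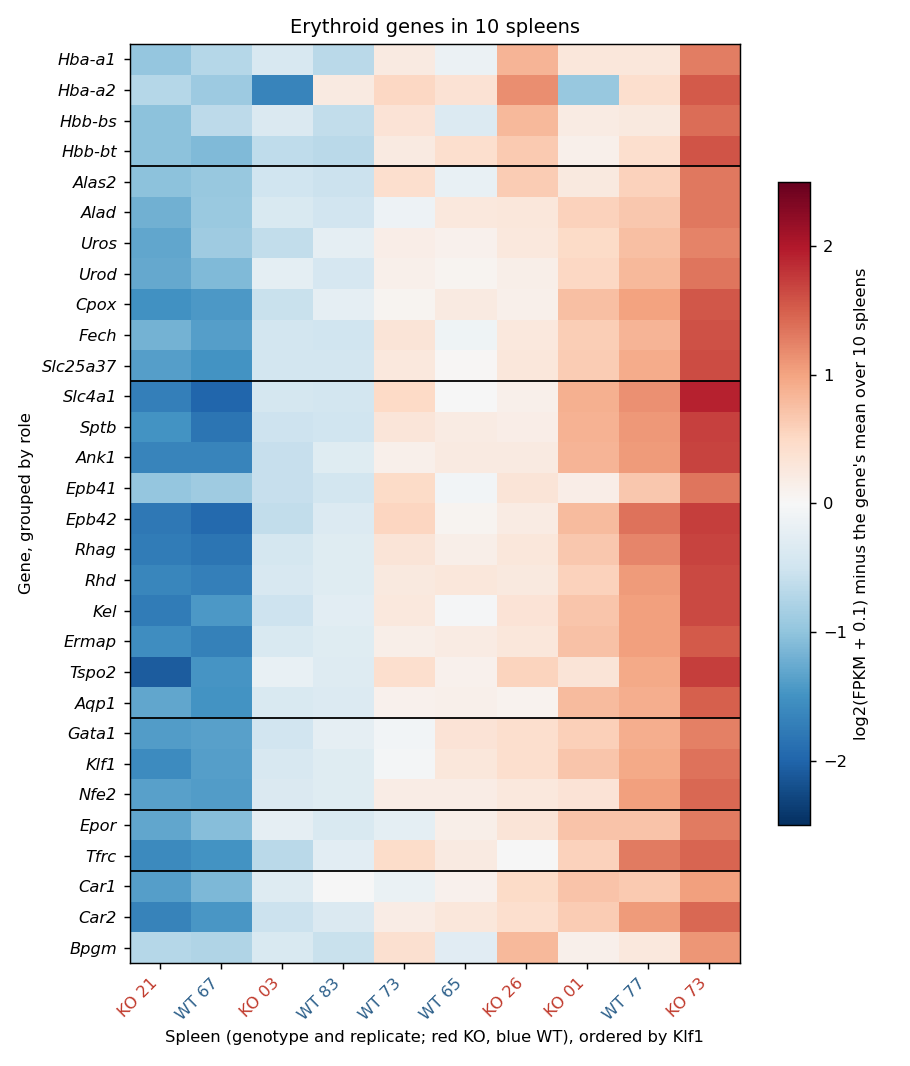
Each row is 1 of the 30 genes and each column 1 spleen, ordered from left to right by the level of Klf1; the colour is log2(FPKM + 0.1) minus the gene's own mean over the 10 spleens, and black lines part the roles. KO 21 and WT 67 form the blue columns at the left and KO 73 the red column at the right, with spleens of both genotypes mixed between them.

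The comparison of DUSP6 KO with WT asked whether loss of the phosphatase changed the erythroid programme of the arthritic spleen. No gene of the 30 passed the test across all genes (limma, adjusted p of 0.05 or less), with adjusted p-values from 0.978 to 0.998, where 0.0704% of the 21296 genes tested passed. At an unadjusted p under 0.05 the count was also 0 of 30, with p from 0.327 to 0.951, where 5.66% of all genes passed. Values of the 5 KO and 5 WT spleens overlapped for 30 of 30 genes, while 1.11% of all genes showed no overlap. The estimate was above 0 for 28 of the 30 genes, with 0.21 as the median on the log2 scale, and 49.0% of all genes tested were above 0, with a median of -0.0046. That count rested on single spleens, because the genes were high or low together within a spleen. Without KO 73 the median was -0.12 and 4 of 30 genes were above 0, and without WT 67 it was -0.13 with 8 of 30, whereas without KO 21 it was 0.60 with 29 of 30. Leaving out KO 26 or KO 01 gave medians of 0.14 and 0.075, and leaving out KO 03 or WT 77 gave 0.33 and 0.46. The 95% intervals were wide, reaching a median of 1.23 to either side of the estimate on the log2 scale. Their ends had medians of -1.001 and 1.425 over the 30 genes, so differences of that size lay within them.

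**Figure D2:**
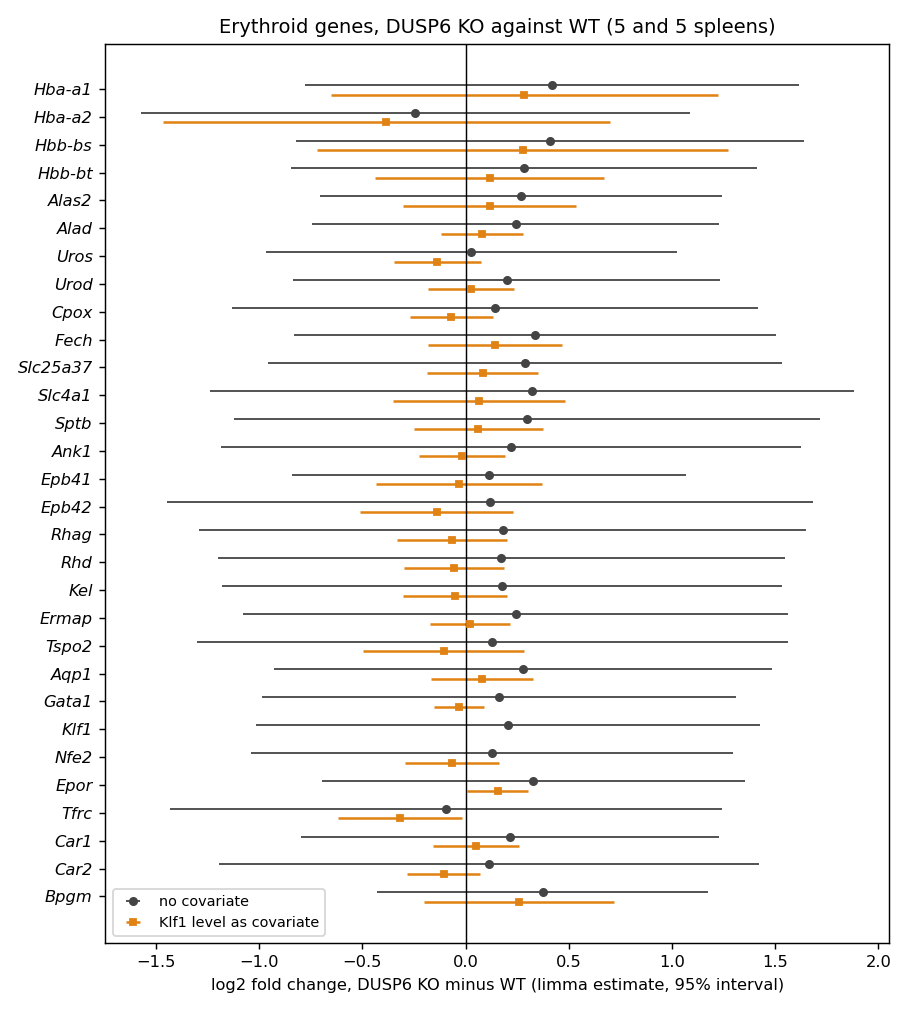
Points are the limma estimates of the log2 fold change, DUSP6 KO minus WT, with 95% intervals for the 30 genes; grey circles come from the fit without a covariate and orange squares from the fit in which the Klf1 level of each spleen was a covariate. Every grey interval includes 0, and the orange intervals are narrower, with Epor just above 0 and Tfrc just below it.

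Both alpha and both beta globin genes of the adult mouse were by mean FPKM the most abundant genes of the list, and their level was spread over a wide range in either genotype. Hbb-bs (ENSMUSG00000052305, chr7:103826534-103828096), an adult beta globin, was at 31051, 8706, 46963, 20583 and 13826 FPKM in KO 26, 21, 73, 01 and 03 and at 13952, 11333, 22556, 21114 and 11619 FPKM in WT 65, 67, 73, 77 and 83. KO 73 and KO 26 were above every WT spleen and KO 21 was below every WT spleen, so the groups overlapped. Its log2 fold change was 0.41 ± 0.56 (SE, limma, adjusted p = 0.993), with a 95% interval from -0.82 to 1.64. Hba-a1 (chr11:32283511-32284465), an alpha globin, was at 30365, 8580, 41140, 20479 and 12801 FPKM in the KO spleens and 15297, 10246, 19564, 20460 and 10498 FPKM in the WT spleens, in the order given above. The ratio of Hba-a1 to Hbb-bs stayed between 0.867 and 1.10 in the 10 spleens, so the alpha and the beta gene followed each other closely. Hbb-bt (chr7:103812524-103813996), the second adult beta gene, was lower, from 1433 FPKM in WT 67 to 9159 FPKM in KO 73.

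Hba-a2 (chr11:32296489-32297298), the second adult alpha gene, was the member that departed most from the others. It was at 4404, 1204, 5659, 1014 and 627 FPKM in KO 26, 21, 73, 01 and 03 and at 2523, 1042, 2823, 2619 and 2286 FPKM in WT 65, 67, 73, 77 and 83. KO 01 took rank 3 for most genes of the list but was 9th for Hba-a2, and KO 03 was lowest of all spleens for this gene alone. The ratio of Hba-a2 to Hba-a1 was 0.145, 0.140 and 0.138 in KO 26, 21 and 73 and 0.0495 and 0.0490 in KO 01 and 03, and it was 0.102 to 0.218 in the WT spleens. Of the 5 KO spleens, 2 were thus below every WT spleen, and the other 3 were within the WT range. The genotypes did not differ beyond their spread (0.104 ± 0.0503 in KO and 0.151 ± 0.0438 in WT, SD, n = 5 each; two-sided exact permutation test p = 0.183, 0.548 after adjustment over 6 ratios). The coding sequences of Hba-a1 and Hba-a2 are identical at 428 of 429 bases and those of Hbb-bs and Hbb-bt at all but 1 base (99.8%) in GENCODE M21, so how reads were divided within each pair is uncertain.

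The 4 globin genes together took 5.73%, 1.74%, 7.57%, 3.88% and 2.53% of the reads of KO 26, 21, 73, 01 and 03, and 3.04%, 1.94%, 3.97%, 3.86% and 2.25% of those of WT 65, 67, 73, 77 and 83. KO 26 and KO 73 exceeded every WT spleen, and KO 21 was below all of them. The exact (Clopper-Pearson) 95% binomial interval was 7.55% to 7.58% in KO 73, and such intervals cover counting error only. The means were 4.29% ± 2.37 in KO and 3.01% ± 0.917 in WT (SD, n = 5 each), and the difference of 1.28 percentage points was within the spread (exact permutation, two-sided, p = 0.318). The 30 genes together took 2.15% to 10.1% of the reads of a library.

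**Figure D3:**
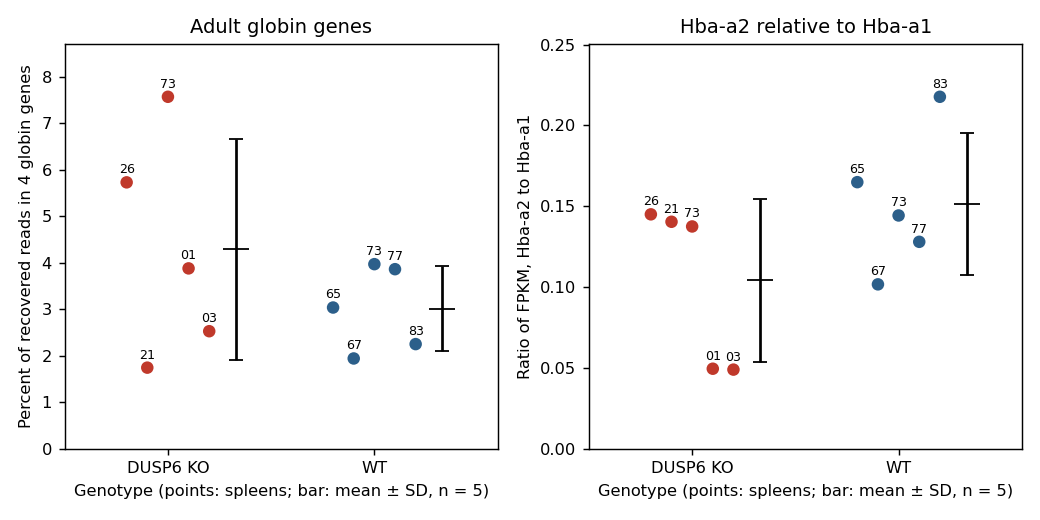
The left panel shows the percent of recovered reads in the 4 adult globin genes and the right panel the ratio of Hba-a2 to Hba-a1 in FPKM, with 1 point per spleen labelled by animal number and the mean ± SD of 5 spleens beside each group. The globin share runs from 1.74% in KO 21 to 7.57% in KO 73, and in the right panel KO 01 and KO 03 lie near 0.05, below the lowest WT spleen at 0.102.

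Among the haem synthesis genes, Alas2 alone had KO 26 second, as the globins did. Alas2 (chrX:150547375-150570638), the erythroid 5-aminolevulinate synthase and first enzyme of the pathway, was at 606, 194, 976, 465 and 278 FPKM in KO 26, 21, 73, 01 and 03 and at 345, 205, 526, 587 and 270 FPKM in WT 65, 67, 73, 77 and 83. KO 73 and KO 26 were above every WT spleen and KO 21 below, as for Hbb-bs. Its log2 fold change was 0.27 ± 0.44 (SE, limma, adjusted p = 0.993). For the other 6 genes WT 77 ranked second and KO 01 took rank 3. Alad, which makes porphobilinogen, was at 34.9 to 201 FPKM in KO and 42.0 to 128 FPKM in WT. Urod, a decarboxylase of the middle of the pathway, was at 25.7 to 159 FPKM in KO and 29.2 to 110 FPKM in WT. Cpox, which acts in mitochondria, was at 15.9 to 135 and 17.0 to 92.0 FPKM. Fech, which inserts iron into the ring, was at 60.4 to 415 FPKM in KO and 52.9 to 248 FPKM in WT, and Slc25a37, the mitochondrial iron importer mitoferrin-1, at 43.9 to 353 and 40.5 to 215 FPKM. All 7 genes of the group were above 0 in log2 fold change, from 0.028 for Uros (uroporphyrinogen synthase) to 0.33 for Fech, with none past the test. Of the exon bases of Alas2, 12.9% are shared with Apex2 on the other strand (mean 1.69 FPKM), and 6 of the 30 genes share any exon base with another gene. Strand use in the counting is not stated, so those reads cannot be assigned with certainty.

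The membrane and skeleton genes spanned the widest range. Slc4a1 (chr11:102348824-102366203), the band 3 anion exchanger that anchors the skeleton to the membrane, was at 297, 83.4, 1034, 501 and 201 FPKM in KO 26, 21, 73, 01 and 03 and at 271, 68.3, 383, 603 and 198 FPKM in WT 65, 67, 73, 77 and 83. KO 73 stood alone at the top, WT 77 came next, and KO 21 and WT 67 lay together at the bottom. The log2 fold change was 0.32 ± 0.71 (SE, limma, adjusted p = 0.993), with an interval from -1.24 to 1.88. Epb42 (protein 4.2, which ties band 3 to ankyrin) ran from 5.95 FPKM in WT 67 to 76.8 FPKM in KO 73, and Tspo2, a protein of late erythroid membranes, from 3.08 FPKM in KO 21 to 44.4 FPKM in KO 73. Sptb and Ank1, the beta chain of spectrin and ankyrin-1, ran from 7.89 to 92.5 FPKM and from 5.30 to 55.0 FPKM. The blood group genes were alike: Rhag, the Rh-associated glycoprotein, ran from 14.8 to 171 FPKM, Rhd from 30.2 to 313 FPKM, Kel from 10.7 to 115 FPKM and Ermap from 16.5 to 154 FPKM. Aqp1, the water channel of the red cell that endothelium also makes, ran from 65.6 to 526 FPKM. Epb41 (protein 4.1, which many cell types make) had the smallest ratio of highest to lowest spleen in the group, 4.95-fold, and reached 101 FPKM in KO 73. All 11 had a log2 fold change above 0, from 0.11 to 0.32, and none passed the test.

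Of the 3 transcription factors, Klf1 (chr8:84901928-84905291), the erythroid Krüppel-like factor, was at 137, 34.5, 262, 165 and 77.9 FPKM in KO 26, 21, 73, 01 and 03 and at 124, 39.2, 98.9, 198 and 82.3 FPKM in WT 65, 67, 73, 77 and 83. The 2 genotypes interleaved along the whole range, with a KO spleen at each end. Its log2 fold change was 0.21 ± 0.55 (SE, limma, adjusted p = 0.993). Gata1, the factor that drives erythroid and megakaryocyte genes, ran from 13.1 FPKM in KO 21 to 83.4 FPKM in KO 73, and Nfe2, which it shares with megakaryocytes, from 12.2 FPKM in WT 67 to 86.9 FPKM in KO 73. Log2 fold changes were 0.16 and 0.13.

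The receptors were the only role with members on both sides of 0 apart from the globins. Epor (chr9:21958897-21963506), the erythropoietin receptor, was at 38.2, 12.4, 75.4, 50.2 and 26.1 FPKM in KO 26, 21, 73, 01 and 03 and at 33.8, 14.5, 25.9, 50.4 and 23.5 FPKM in WT 65, 67, 73, 77 and 83. Tfrc (chr16:32608920-32632794), the transferrin receptor that brings iron into dividing and haem-making cells, was at 69.9, 23.2, 193, 104 and 44.0 FPKM in the KO spleens and 82.2, 24.9, 96.0, 173 and 58.6 FPKM in the WT spleens. The log2 fold changes were 0.33 ± 0.46 for Epor and -0.096 ± 0.61 for Tfrc (SE, limma, adjusted p = 0.993 and 0.997). The ratio of Tfrc to Epor was 1.83, 1.87, 2.56, 2.08 and 1.69 in the KO spleens and 2.43, 1.72, 3.71, 3.44 and 2.49 in the WT spleens, with WT 65, 67 and 83 inside the KO range. Its means of 2.00 ± 0.339 and 2.76 ± 0.810 (SD, n = 5 each) did not differ beyond the spread (two-sided exact permutation test p = 0.119, 0.548 after adjustment over 6 ratios).

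Among the red cell enzymes, Car2, a carbonic anhydrase also made by other cells, ran from 152 FPKM in KO 21 to 1309 FPKM in KO 73, and Car1, the carbonic anhydrase typical of red cells, from 90.9 to 483 FPKM in the same spleens. Bpgm (chr6:34476207-34505613) was at 230, 80.1, 285, 145 and 101 FPKM in KO 26, 21, 73, 01 and 03 and at 109, 77.9, 175, 158 and 90.0 FPKM in WT 65, 67, 73, 77 and 83. With KO 26 second, Bpgm followed the order of the globins rather than that of Klf1. It had the smallest p of the list, with a log2 fold change of 0.37 ± 0.36 (SE, limma, unadjusted p = 0.327, adjusted p = 0.978).

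Most of the other 29 genes were ordered much like Klf1 across the 10 spleens. On the log2 scale Pearson's r with Klf1 had a median of 0.981 and was 0.95 or more for 22 of the 29, and 28 of 29 passed after adjustment over the 29 relations (permutation tests, 100000 resamples, smallest possible p 1e-05). Of all 21295 genes tested beside Klf1, 2.18% had an r of 0.95 or more, and 7.5% had an r at or above the lowest that passed, 0.832 for Bpgm. Gata1 was closest, with r = 0.997 and rho = 1.0 (permutation p = 1e-05 for each), followed by Car2 with r = 0.995 and rho = 1.0 (permutation p = 1e-05 for each). Ank1 and Ermap both had r = 0.992. The globins were looser, with r = 0.877 for Hba-a1, 0.846 for Hbb-bs and 0.914 for Hbb-bt, and so were Bpgm at 0.832, Alas2 at 0.919 and Epb41 at 0.920. Hba-a2 did not pass, with r = 0.614 and rho = 0.588 (permutation p = 0.0605 and 0.0805). Without WT 67 and KO 21, the 2 spleens farthest from the median of Klf1, the median r was 0.961 and the lowest 0.525, and with each genotype's mean taken out it was 0.983. All values of a spleen share its library and its scaling, so these relations describe how the spleens were ordered.

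**Figure D4:**
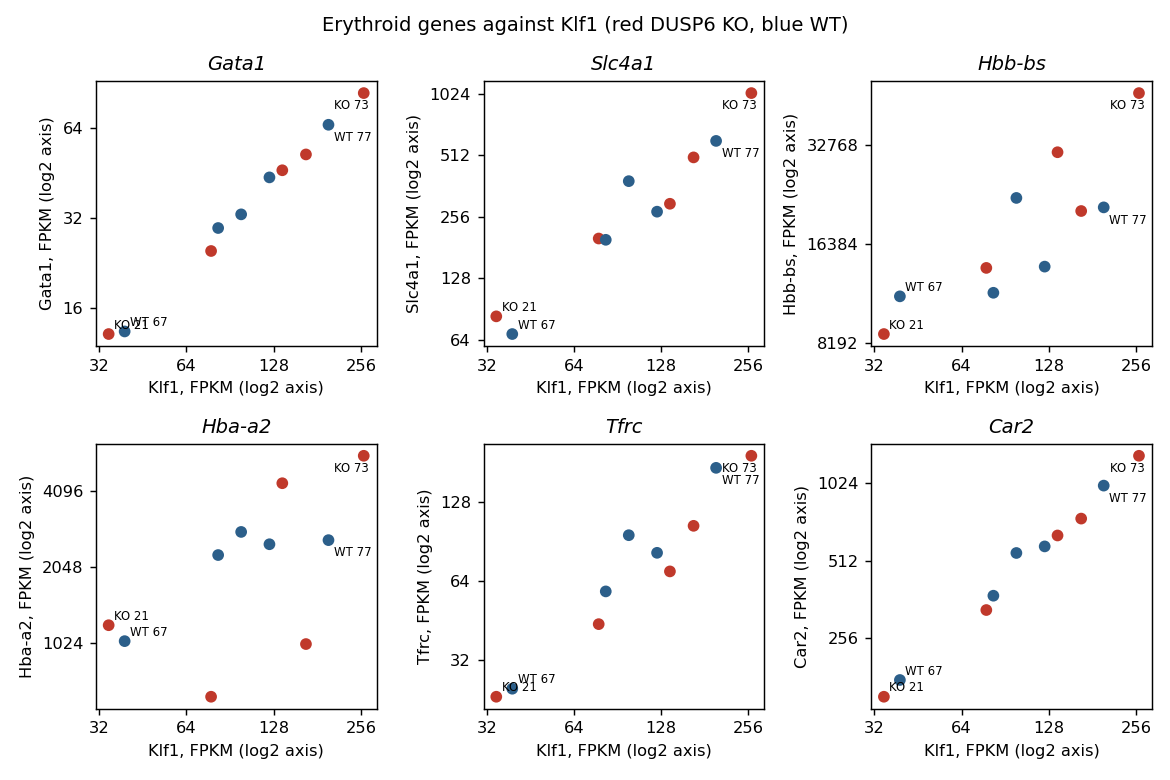
Each panel plots a gene against Klf1, both in FPKM on log2 axes, with 1 point per spleen (red DUSP6 KO, blue WT). Gata1 and Car2 lie close to a line from KO 21 to KO 73, and the globin Hbb-bs is more scattered. For Hba-a2 the KO points 03 and 01 are low for their level of Klf1, with KO 01 at a height near that of WT 67.

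With the Klf1 level of each spleen as a covariate, a fit chosen after the values had been seen, the genotypes were compared at a like level of Klf1. Genes that followed Klf1 more loosely, such as the globins and Alas2, were not held at a like level by it. The half-width of the 95% interval fell from a median of 1.23 to 0.27 on the log2 scale. None of the 29 genes passed the adjusted test (adjusted p from 0.581 to 0.982), where 0.122% of 21295 genes did. At an unadjusted p under 0.05 there were 2 of 29, or 6.90%, where 8.07% of all genes had one. These were Epor, with a log2 fold change of 0.15 (95% interval 0.0084 to 0.30, unadjusted p = 0.0402, adjusted p = 0.581, limma), and Tfrc, with -0.32 (interval -0.62 to -0.016, unadjusted p = 0.0410, adjusted p = 0.586, limma). For the tightest gene, Gata1, the estimate was -0.032 with an interval from -0.15 to 0.087. For 15 of 29 genes the estimate was above 0.

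A wider list of erythroid genes was taken from general knowledge, and 106 of its 109 names are in the table under that name, 103 of them past the filter. None passed the adjusted test, and 2 had an unadjusted p under 0.05 (limma), where the shares over all genes were those given above. By estimate, 86 of the 103 were higher and 17 lower in KO (median 0.15 on the log2 scale), where 49.0% of all genes were higher. This count also rested on single spleens, with 29 of 103 higher without KO 73 (median -0.090) and 38 of 103 without WT 67 (median -0.042). An r with Klf1 of 0.9 or more was reached by 60 of the 103 genes and by 4.78% of the 21295. The genes at either end of each group were as follows. In the membrane group, Smim1, a small blood group protein, was at a log2 fold change of 0.48, and Slc2a1, the glucose transporter GLUT1, at -0.071. Among the haem and mitochondrial iron genes, Ppox, the enzyme before Fech, was at 0.23, and Abcb6, a porphyrin transporter, at -0.31. Among the red cell enzymes, Pklr, the pyruvate kinase of red cells and liver, was at 0.29 and Car3, a muscle carbonic anhydrase, at -0.34 ± 1.455 (SE). Car3 was at 13.2 FPKM in KO 73, 10.4 FPKM in WT 67 and 0 to 0.258 FPKM in the other spleens, so its estimate rests on values near the floor. Its mean FPKM was 2.73 in KO and 2.21 in WT, which is the other direction. In the erythropoietin group, Erfe (erythroferrone, the hormone of erythroblasts that lowers hepcidin) was at 0.74 ± 0.77 (SE), and Pim1, a kinase induced by STAT5, at -0.11. Among genes of terminal maturation, Ubac1 was at 0.29 and Nxpe2 at -0.038, and of the iron genes Ireb2, which senses iron, was lowest at -0.090.

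Of the factors, Sox6, a repressor of embryonic globin genes, was highest at 0.25, and Cbfa2t3, the corepressor ETO2, was lowest. Cbfa2t3 was at 9.13, 9.38, 8.02, 7.35 and 8.73 FPKM in KO 26, 21, 73, 01 and 03 and at 10.8, 10.7, 10.8, 8.46 and 9.58 FPKM in WT 65, 67, 73, 77 and 83. WT 77 lay within the KO range and the other 4 WT spleens above it. The log2 fold change was -0.24 ± 0.099 (SE, limma, unadjusted p = 0.0361, adjusted p = 0.828). Without WT 67 its unadjusted p was 0.0770, and with each spleen left out in turn it ran from 0.00976 to 0.0914. Hba-x, Hbb-y and Hbb-bh1, globins of the embryo, had at most 8 reads in any library. Hbb-bh1, a beta-like globin of the early embryo, had 0 to 5 reads per library, with 0.262, 0.420, 0.334, 0 and 0.393 FPKM in the KO spleens and 0, 0, 0.0946, 0 and 0.182 FPKM in the WT spleens. Its unadjusted p was 0.0404 (limma, adjusted p = 0.846), and its fitted log2 fold change of 1.24 depended on the pseudocount, being 0.27 with a pseudocount of 1 and 2.60 with 0.01. Without WT 67 its unadjusted p was 0.0815, and with each spleen left out in turn it ran from 0.00259 to 0.0934. Hbq1b, a theta globin, gave the smallest change of that group at 0.36 and did follow Klf1 (r = 0.956).

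Steap3, the ferrireductase that lets erythroid cells use iron from transferrin, was the gene of the wider list that differed between the genotypes at a like Klf1 level. It lies on chr1:120190757-120272705 and was at 19.1, 7.21, 40.2, 26.7 and 12.2 FPKM in KO 26, 21, 73, 01 and 03 and at 11.6, 4.56, 8.48, 16.6 and 8.54 FPKM in WT 65, 67, 73, 77 and 83. KO 26, 73 and 01 were above every WT spleen, while KO 21 and KO 03 fell within the WT range. Without a covariate its log2 fold change was 0.96 ± 0.46 (SE, limma, unadjusted p = 0.0623, adjusted p = 0.921). The ratio of Steap3 to Klf1 was 0.139 to 0.209 in the KO spleens and 0.0839 to 0.117 in the WT spleens. The share of all genes whose ratio to Klf1 shows no overlap was not counted, and this ratio uses the same values as the covariate fit. With Klf1 as covariate the log2 fold change was 0.79 (interval 0.61 to 0.97, limma, adjusted p = 0.00406). It was the only gene of the wider list to pass there, where 0.122% of all genes did. Leaving out each spleen in turn gave adjusted p-values from 0.00635 to 0.0255. With Gata1 in place of Klf1 the adjusted p was 0.00294 (limma), but Gata1 had r = 0.997 with Klf1 and is nearly the same covariate. With Alas2, at r = 0.919 with Klf1, the adjusted p was 0.447 (limma) at a log2 fold change of 0.71. The choice of gene and covariate was made after the values were seen.

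**Figure D5:**
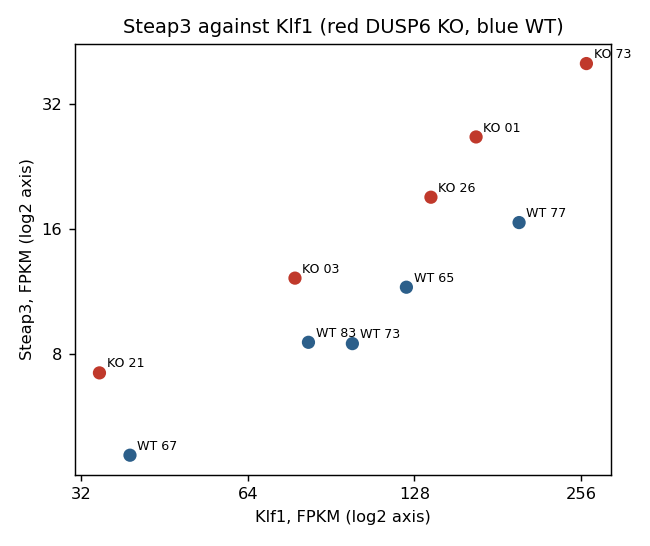
Steap3 is plotted against Klf1 in FPKM on log2 axes, 1 point per spleen with its number (red DUSP6 KO, blue WT). The 5 KO points lie above the 5 WT points at a like level of Klf1, with ratios of 0.139 to 0.209 against 0.0839 to 0.117.

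Markers of other cells moved with the erythroid level in part. The summed level of 8 proliferation genes was 128 to 717 FPKM in KO and 119 to 527 FPKM in WT and followed Klf1 (r = 0.980, rho = 0.939, permutation p = 1e-05 and 0.00014, r = 0.969 without the 2 farthest spleens). The 8 B cell markers summed to 685 to 1349 FPKM in KO and 778 to 1748 FPKM in WT and ran the other way (r = -0.838, rho = -0.830, permutation p = 0.00298 and 0.00449, 0.0119 and 0.0120 after adjustment over 8 lists, r = -0.923 without the 2 farthest spleens). The 8 markers of stroma and capsule, at 147 to 239 FPKM in KO and 148 to 192 FPKM in WT, also ran the other way (r = -0.757, rho = -0.879, permutation p = 0.0119 and 0.0017, adjusted 0.0317 and 0.0068, r = -0.738 without the 2 farthest spleens). For the 12 megakaryocyte and platelet markers, which share GATA1 and NFE2 with the erythroid line, r was 0.140 and rho 0.103 (permutation p = 0.701 and 0.784). The 10 neutrophil progenitor markers were at 190 to 719 FPKM in KO and 305 to 2028 FPKM in WT, with r = 0.562 and rho = 0.552 (permutation p = 0.0906 and 0.105), and 7 of the 10 were lower in KO at an unadjusted p under 0.05 (limma), as were 3.03% of all genes. That count was 1 without KO 21, KO 01 or KO 03, 2 without WT 73 or WT 77, 3 without WT 83 and 10 without WT 67. All 11 megakaryocyte and platelet markers tested were lower in KO by estimate, of which Pf4 (log2 fold change -0.52, unadjusted p = 0.0199) and Itga2b (-0.49, unadjusted p = 0.0204) had a p under 0.05 (limma), and 8 did without WT 67 and 4 without KO 21. Among 7 red pulp macrophage markers, Adgre1 (0.38, unadjusted p = 0.00741) and Cd163 (0.39, unadjusted p = 0.0140) were higher in KO at that level. So were 2.62% of all genes. The list as a whole was mixed, with 5 of the 7 estimates above 0 and 2 below, and its middle estimate was 0.072. Spic was at -0.0035 and Vcam1 at -0.11. Of the stroma markers, Pdgfrb was higher (0.57, unadjusted p = 0.00586) and Lum lower (-1.57, unadjusted p = 0.00296). No marker of the 8 lists passed the adjusted test. T cell, red pulp macrophage and exocrine pancreas markers had r of -0.569, -0.0311 and -0.372 with Klf1, none past the test adjusted over 8 lists. No marker of any of the 8 lists was at 0 in every library, and the part of other cells in the erythroid values was not tested.

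Outside these lists, the 10 genes most like Klf1 over the 10 spleens, among 13228 genes whose mean was 1 FPKM or more, were Abcg4, Ces2g, Slc38a5, Sec14l2, Pheta2, Pabpc4, Ube2c, C1qtnf12, Gm867 and Cdca7, with r from 0.989 to 0.994 on the log2 scale. Slc38a5, a glutamine transporter, ran from 8.68 FPKM in KO 21 to 68.5 FPKM in KO 73, and Ube2c, a ubiquitin-conjugating enzyme of mitosis, from 25.4 to 158 FPKM in the same spleens. For each of the 10, KO 73 was the highest spleen and KO 21 or WT 67 the lowest. Of the 13228 genes, 904 (6.83%) had an r of 0.9 or more with Klf1 and 283 (2.14%) an r of -0.9 or less.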

How the data were processed

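Paired-end reads had been aligned by the authors (Hisat2 v2.0.5) and counted per gene (featureCounts 1.5.0-p3), and the authors deposited FPKM values with a length for each of 54532 genes, for 10 libraries. The build named by the submitters is hg38; coordinates of 29 of the 30 genes equal those of GENCODE M21 (GRCm38), so mouse coordinates are given. In each library FPKM times length was a whole multiple of 1 step (100% within 0.001 of a read), which gave the reads behind each value; they are reads assigned to genes. The total that the authors scaled by was 0.949 to 1.12 times that sum. Genes and lists were chosen with earlier results of these data known.

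Genotypes were compared with limma 3.58.1 (R 4.3.3, trend option), fitted to log2(FPKM + 0.1). Of all genes, 21296 averaged 0.1 FPKM or more and entered the fit, p-values were adjusted by Benjamini-Hochberg at 0.05, and the script was tested on simulated data. Single values were compared by two-sided exact permutation tests. DESeq2, which the authors used on counts, was not repeated. P-values of the genotype comparisons judge a difference against the spread between mice. In the text are named all genes of the list, the genes at the ends of each group of the wider list and any past the test, and the 10 genes most like Klf1. Sequences were taken from RefSeq, and globin transcripts were aligned with blastn 2.17.0. Alternatives were other pseudocounts, filters, scalings, voom, robust trend and each library left out. A further covariate gene is not reported here. Figures used matplotlib 3.10.9 and Python 3.11.15.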

Additional observations from a re-analysis of the deposited data

Results flagged for a closer look

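For the 30 genes, the globin share, 6 ratios and Steap3, 76 groups of 5 spleens were examined for a value far from the others by Dixon's test at 95%, and 0 passed.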

How the results depend on the processing

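No gene of the list passed the adjusted test under any alternative run, the lowest adjusted p being 0.581 with Klf1 as covariate and 0.749 with a spleen left out, and the count at an unadjusted p under 0.05 was 0 except for 2 with the Klf1 covariate. Of the 103 genes of the wider list, 1 passed the adjusted test with that covariate, where 0.122% of all genes did. An unadjusted p under 0.05 was reached by 7 of the 103 with it, and by 8.07% of all genes, against 5.66% of all genes without it. That count in the wider list was 1 with a pseudocount of 0.01 or a minimum mean of 1 FPKM and 0 to 3 with a spleen left out. With a spleen left out, the median log2 fold change ran from -0.13 to 0.60 and the globin difference from 0.458 to 1.91 percentage points. Log2 fold changes that changed sign on leaving out a spleen ran as follows: Alad from -0.059 to 0.57, Alas2 from -0.029 to 0.55, Ank1 from -0.18 to 0.66, Aqp1 from -0.061 to 0.64, Car1 from -0.038 to 0.59, Car2 from -0.23 to 0.54, Cpox from -0.23 to 0.54, Epb41 from -0.20 to 0.37, Epb42 from -0.35 to 0.58, Ermap from -0.15 to 0.66, Fech from -0.021 to 0.67, Gata1 from -0.16 to 0.53, Hba-a2 from -0.66 to 0.14, Hbb-bt from -0.076 to 0.57, Kel from -0.22 to 0.63, Klf1 from -0.11 to 0.62, Nfe2 from -0.21 to 0.48, Rhag from -0.26 to 0.64, Rhd from -0.23 to 0.60, Slc25a37 from -0.083 to 0.67, Slc4a1 from -0.14 to 0.79, Sptb from -0.12 to 0.71, Tfrc from -0.48 to 0.29, Tspo2 from -0.29 to 0.67, Urod from -0.11 to 0.54 and Uros from -0.28 to 0.35. With Klf1 as covariate the sign changed for Uros (-0.14), Cpox (-0.070), Ank1 (-0.016), Epb41 (-0.034), Epb42 (-0.14), Rhag (-0.066), Rhd (-0.056), Kel (-0.052), Tspo2 (-0.11), Gata1 (-0.032), Nfe2 (-0.067) and Car2 (-0.11), and with quantile normalization for Hba-a1 (-0.021). Quantile normalization sets a value by its rank, and Hbb-bs, which held the same ranks in both genotypes, had an estimate of 0 there. The median SD was 0.832 to 1.002 and the median r with Klf1 0.978 to 0.986 with a spleen left out. The cause of these shifts was not tested. No paired analysis was possible because no pairing of KO with WT mice is stated. Depth limits the values of Hba-x, Hbb-y and Hbb-bh1, at 0 to 8 reads a library.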

Other observations

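The erythroid level was more spread among the KO than among the WT spleens: the SD of the log2 values was higher in KO for 30 of the 30 genes, with medians of 1.10 and 0.87, and for 58.6% of all 21296 genes tested. Without KO 73 it was higher in KO for 18 of 30 genes, without KO 21 for 12, and without WT 67 for 30. Without both KO 73 and KO 21 it was higher in KO for 4 of 30, with medians of 0.57 in KO and 0.87 in WT. The genes were high or low together within a spleen, so the count of 30 rested on single spleens. A difference in spread between the genotypes was not tested.

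The ratio of Hbb-bs to Klf1, in FPKM, ran from 107 in WT 77 to 289 in WT 67, and that of Alas2 to Klf1 from 2.79 in WT 65 to 5.62 in KO 21. The first was highest in WT 67 and KO 21, the spleens with least Klf1, but Klf1 is its divisor, so a low Klf1 by itself raises it. Neither ratio differed between the genotypes beyond the spread (two-sided exact permutation test, p = 0.556 and 0.786). The ratio of Hbb-bt to Hbb-bs was 0.296 in WT 65 and 0.126 to 0.196 in the other 9 spleens.

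With Klf1 as covariate, 26 genes differed between the genotypes over the whole table (limma, adjusted p of 0.05 or less). Of these, 10 lie on chromosome 10, which carries Dusp6 and 4.81% of the genes tested, and 5 on chromosome 1, which carries Steap3 and 6.39% of the genes tested.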
